A study of Arabidopsis thaliana with 4 samples.

Results

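The genes described here encode enzymes and proteins that build, modify or loosen the plant cell wall. They were chosen by symbol in the array's platform annotation, from 22 symbol families that include the cellulose synthase-like (CSL), trichome birefringence-like (TBL), expansin (EXPA, EXPB, EXLA, EXLB), galacturonosyltransferase (GAUT) and glycoside hydrolase family 9 (GH9) genes, with xyloglucan endotransglucosylases left out. Of 13350 genes with a probe set that matches 1 gene, 66 met this rule, in 11 of the 22 families. No member of the cellulose synthase (CESA), arabinogalactan protein, extensin or COBRA-like families is among them, since those genes had no probe set named in this way, so the 66 genes do not stand for the whole wall machinery.

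RNA came from green tissue of Arabidopsis thaliana seedlings, labelled as 20 days old (the study's text gives a younger age). The labels call the tissue green in both groups, while the study's methods name green tissue for gl3 egl3 and whole tissue for wild type, and the labels are followed here. The samples fell into 2 groups of 2, gl3 egl3 double mutants and wild type plants of the Landsberg erecta (L. er) accession, with 1 Affymetrix ATH1 array per sample. GL3 and EGL3 encode related transcription factors needed for leaf hairs (trichomes), and the double mutant has none on its leaves. The titles of the mutant samples name no accession or alleles, and the study's methods describe RNA extractions from pooled seedlings, in a passage that opens with another experiment. The study's methods describe independent biological material for its arrays. Expression is given per probe set on the log2 scale, and differences are gl3 egl3 minus wild type.

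The wall of a growing leaf cell is a network of cellulose fibrils held in a matrix of hemicelluloses and pectins. Glucan and mannan backbones of hemicelluloses are made in the Golgi by CSL proteins, many TBL proteins add acetyl groups to wall polysaccharides, GAUT proteins build pectin, and expansins loosen the network so that it can stretch. A trichome is a single large epidermal cell with a thick wall, and the TBL family is named after a mutant whose trichome walls lost their birefringence under polarised light.

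The arrays were alike in overall signal, with medians of 4.92 to 4.99 over 22746 probe sets and Pearson's correlations, across probe sets, of 0.992 within groups and 0.985 to 0.989 between them. EGL3, read by a probe set that the study's own gene list identifies, lay at the bottom of the scale, with means of 2.306 in the mutant and 2.302 in wild type, and therefore gives no check of the genotype. GL3 was not analysed here. Of 11 mesophyll markers 4 were measured, and the log2 of their summed linear values was 14.53 to 14.65 in the mutant against 14.67 to 14.70 in wild type. Of 9 root markers 3 were measured. PYK10 was at 10.04 and 11.04 in the mutant against 10.75 and 10.64 in wild type, a high level on every array of tissue labelled green, and the root hair expansins EXPA7 and EXPA18 lay between 2.15 and 2.16. If the wild type tissue held roots, as the methods' wording allows, tissue and genotype cannot be told apart. Of 8 trichome markers only 1, TRY, was measured, and of 12 xylem and secondary wall markers only 1, GUT2. Both lay near 2.4 in both groups, so TRY gives no check of the trichome phenotype. The 3 of 7 guard cell markers measured, summed in the same way, reached 6.83 to 7.26 in the mutant against 7.05 to 7.52 in wild type. In bulk tissue, fewer cells of a type and less RNA per cell cannot be told apart.

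Of the 14 wall genes with a mean of 5 or more, 11 were higher in gl3 egl3 (78.6%, against 56.9% of all probe sets with such a mean). EXLA2 and GAUT15 reached that mean only through gl3 egl3, and EXPA8, lower in the mutant, fell short of it. The count is therefore a description. The mannan synthase gene CSLA03 was 2.84-fold higher, the expansin-like genes EXLA2 and EXLA1 5.004-fold and 3.21-fold, the pectin gene GAUT15 1.86-fold and the xyloglucan synthase gene CSLC04 1.79-fold. Among dimmer genes, TBL16 was 2.22-fold higher. The one gene more than 2-fold lower, also among the dimmer ones, was EXPA8, an alpha-expansin, at 2.45-fold. None passed the limma threshold of 0.05 after adjustment over all 22746 probe sets, as no probe set did (0%), and the smallest adjusted p among the 66 genes was 0.168.

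**Figure D1:**
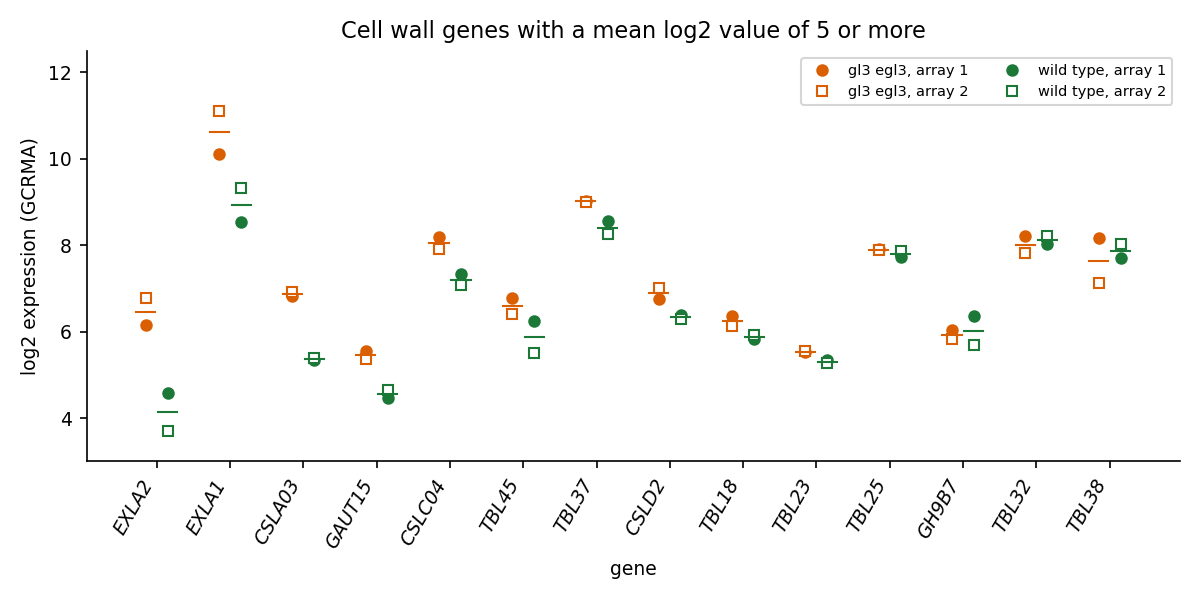
Log2 expression (y axis) of the 14 cell wall genes with a mean of 5 or more (x axis, ordered by difference) on each array; orange marks gl3 egl3, green marks wild type, filled circles are array 1 and open squares array 2, and short lines are group means. For 11 genes, from EXLA2 to TBL25, both mutant values lie above both wild type values, and for GH9B7, TBL32 and TBL38 the groups overlap.

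At an unadjusted limma p under 0.01, 4 of the 66 genes (6.06%) were higher in gl3 egl3, against 2.03% of all probe sets, and 0 were lower, against 1.22%. The study's methods used this level with Student's t-test, which gave 1 gene higher and 0 lower when run on these log2 values. The share of all probe sets under that test was not counted, so nothing is read from these 2 counts. The 4 genes higher with limma were CSLA03, TBL16, GAUT15 and TBL23. At an unadjusted p under 0.05, 8 were higher (12.1%, against 5.58%) and 0 lower (against 3.72%). The 4 added at that level were CSLC04, EXLA2, CSLD2 and TBL37. More than 2-fold, 4 genes were higher (6.06%, against 1.25%) and 1 lower (1.52%, against 1.7%). The genes were chosen with earlier results of these data known, so these shares are a description.

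The signal of most of these probe sets was low. In 41 of the 66 genes (62.1%, against 36.8% of all probe sets) the means of both groups lay under 3, here called the low end, where the authors' background correction draws dim probe sets to a common value. A further 11 genes were above the low end in at least 1 group but had a mean under 5, and 14 had a mean of 5 or more. Of the 11, 2 were higher without overlap between the groups, against 30.9% of the 3085 probe sets in that range, 5 were lower without overlap, against 16%, and 4 overlapped. Among the 5 lower genes, EXPB3 rests on wild type array 1, as its difference of -0.92 was -0.03 without that array. A gene that is above the low end in 1 group only is bound to differ, so these counts are given as a description. Of these 14, 11 were higher in gl3 egl3 with no overlap between the groups (78.6%), against 28.3% of the 11298 probe sets of that mean, and 0 were lower without overlap, against 18.3%. The mean is taken over all 4 arrays, so EXLA2 and GAUT15 passed through gl3 egl3, with wild type means of 4.145 and 4.568. EXPA8, lower without overlap, fell short with a mean of 4.798, though its wild type mean was 5.444. These counts of the 14 are therefore a description too. The median difference of the 14 was 0.57, against 0.04 over those probe sets. Over all 66 genes the median difference was 0.00, since most of these genes sit at the low end. Over all probe sets, of which 36.8% do, it was 0.01.

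**Figure D2:**
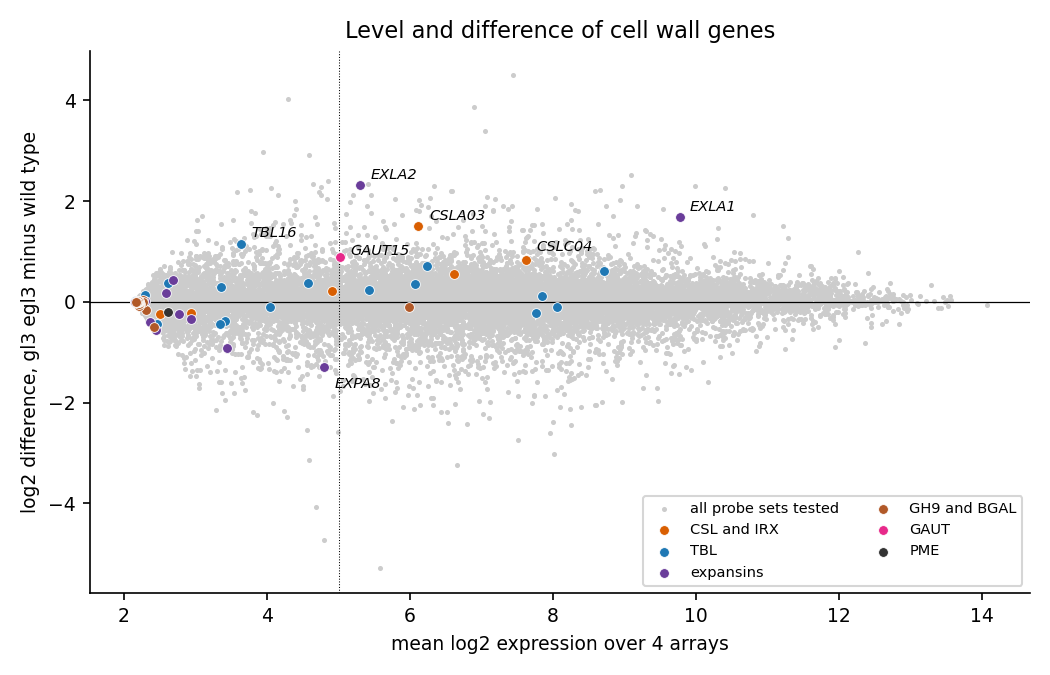
Difference between gl3 egl3 and wild type (y axis, log2) against the mean log2 expression over 4 arrays (x axis); grey points are the 22746 probe sets tested, coloured points the 66 cell wall genes by family, and the dotted line marks a mean of 5. Right of that line 11 coloured points lie above 0 and 3 below, while most of the others crowd near 2 with differences close to 0.

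Of 8 genes grouped under hemicellulose synthesis, 5 lay above the low end in at least 1 group. Of these, 4 were higher in the mutant without overlap, against 28.8% of the 14383 probe sets above the low end. The other, CSLC5, was lower without overlap, against 17.8%, and was above the low end in wild type only (mean 3.043, against 2.822 in the mutant). CSLA03 (AT1G23480), a member of the CSLA family of mannan and glucomannan synthases, had log2 values of 6.82 and 6.92 in the mutant against 5.34 and 5.39 in wild type. The groups lay far apart relative to their spread, and both arrays of each group were nearly equal. The difference was 1.504 (SE 0.050, 95% interval 1.33 to 1.68, limma adjusted p 0.168), and 1.45 to 1.55 with any 1 array left out. CSLA03 was set as the leading gene with this value known, so the value is a description. The count of 4 higher genes above includes CSLA03 and is a description too. The other CSLA gene, CSLA01, lay at 2.15 in both groups.

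CSLC04 (AT3G28180) belongs to the family that makes the glucan backbone of xyloglucan, the main hemicellulose of leaf walls. Its values were 8.18 and 7.91 in the mutant against 7.33 and 7.09 in wild type, without overlap, a difference of 0.84 (SE 0.16, limma adjusted p 0.392). Of the other 3 CSLC genes, CSLC6 was at 5.02 in the mutant against 4.81 in wild type, without overlap (difference 0.21, 95% interval -0.12 to 0.55), while CSLC5 and CSLC12 lay at or near the low end. CSLC12 was at 2.89 on wild type array 2 and between 2.38 and 2.39 on the others. CSLC5 differed by -0.22 and CSLC12 by -0.25, but without wild type replicate 1 the difference of CSLC5 was -0.03, and without wild type replicate 2 that of CSLC12 was 0.01. None of the 4 passed the adjusted threshold.

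CSLD2 (AT5G16910), of a family needed for tip growth of root hairs and for new cell walls, had values of 6.76 and 7.01 in the mutant against 6.39 and 6.29 in wild type. Again the groups did not overlap. The difference was 0.54 (SE 0.12, limma adjusted p 0.424). IRX15, which acts in xylan synthesis of secondary walls, was dim in both groups (2.16 and 2.19). The genes higher without overlap were thus CSLA03, CSLC04, CSLD2 and CSLC6. CSLC5, the other gene above the low end in at least 1 group, was lower without overlap.

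The TBL family holds 22 of the 66 genes, and many of its members are O-acetyltransferases of wall polysaccharides. Both directions occurred. TBL16 (AT5G20680) had values of 4.25 and 4.17 in the mutant against 3.17 and 2.94 in wild type, which is a difference of 1.15 (SE 0.11, limma adjusted p 0.237). Its wild type values lie at the edge of the low end, and with 16 added to the linear values, which damps differences between dim values, the difference was 0.50. TBL45 was at 6.79 and 6.41 against 6.25 and 5.51, without overlap. Its difference of 0.72 had an interval of -0.54 to 1.98 and ranged from 0.35 to 1.09 when 1 wild type array was left out.

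TBL37 had values of 9.03 and 8.996 in the mutant against 8.56 and 8.26 in wild type, which is a difference of 0.60 (SE 0.13, limma adjusted p 0.435). TBL18 was at 6.36 and 6.13 against 5.84 and 5.92, a difference of 0.36 (interval -0.00365 to 0.73). In both genes the lowest mutant array lay above the highest wild type array. TBL38, described as acting on pectin in the seed coat, was at 8.16 and 7.13 in the mutant against 7.72 and 8.03 in wild type. The mutant arrays of TBL38 enclosed the wild type ones. It was the 1 gene of the 66 whose mutant arrays differed by more than 1 (1.52%, against 2.33% of all probe sets), and its difference of -0.23 became 0.29 without gl3 egl3 replicate 2.

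Some TBL proteins have a known substrate, and the genes are given here by substrate, a grouping made after their values were seen. TBL23, TBL25 and TBL26 acetylate mannans, the polymer that CSLA proteins make. TBL23 was at 5.53 and 5.56 in the mutant against 5.34 and 5.28 in wild type, a small difference of 0.23 (SE 0.030, limma adjusted p 0.274) with tight arrays. TBL25 differed by 0.11 (interval -0.11 to 0.33), with its groups just apart at 7.91 and 7.90 against 7.72 and 7.86. TBL26, nearer the low end, was lower in gl3 egl3, at 3.32 and 3.13 against 3.49 and 3.73, with a difference of -0.39 (interval -0.85 to 0.07). Of the 5 mannan genes, 1, CSLA01, lay at the low end. Of the other 4, 3 were higher without overlap, against 28.8% of the probe sets above the low end, and 1 was lower, against 17.8%. The group was formed with these values known, so nothing is read from the count.

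The xylan acetylation genes were TBL28, TBL30, TBL32, TBL34 and TBL35. TBL32 was at 8.20 and 7.81 in the mutant against 8.02 and 8.21 in wild type, overlapping, with a difference of -0.10 (interval -0.76 to 0.55). Its probe set can also bind related transcripts. TBL28 and TBL30, neighbours in the genome, differed by -0.11 and 0.30 and overlapped between groups. TBL35 was lower in gl3 egl3, at 3.13 on both arrays against 3.40 and 3.73, a difference of -0.44 (interval -0.94 to 0.06), and TBL34 lay at the low end. With IRX15, 6 xylan genes were measured and 4 lay above the low end. Of these 4, 0 were higher without overlap (against 28.8%) and 1 was lower (against 17.8%), and with so few genes nothing is read from either count. Whether these genes differ in response from the mannan genes was not tested.

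Of the remaining TBL genes, TBL39 was at 4.79 and 4.73 in the mutant against 4.75 and 4.01 in wild type. Its difference of 0.38 was 0.01 when wild type replicate 2 was left out. TBL36 and TBL41 stood out on 1 array each, as described with the other dim genes, and TBL15, TBL19, TBL20, TBL21, TBL42 and TBL43 lay between 2.14 and 2.20 on every array.

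**Figure D3:**
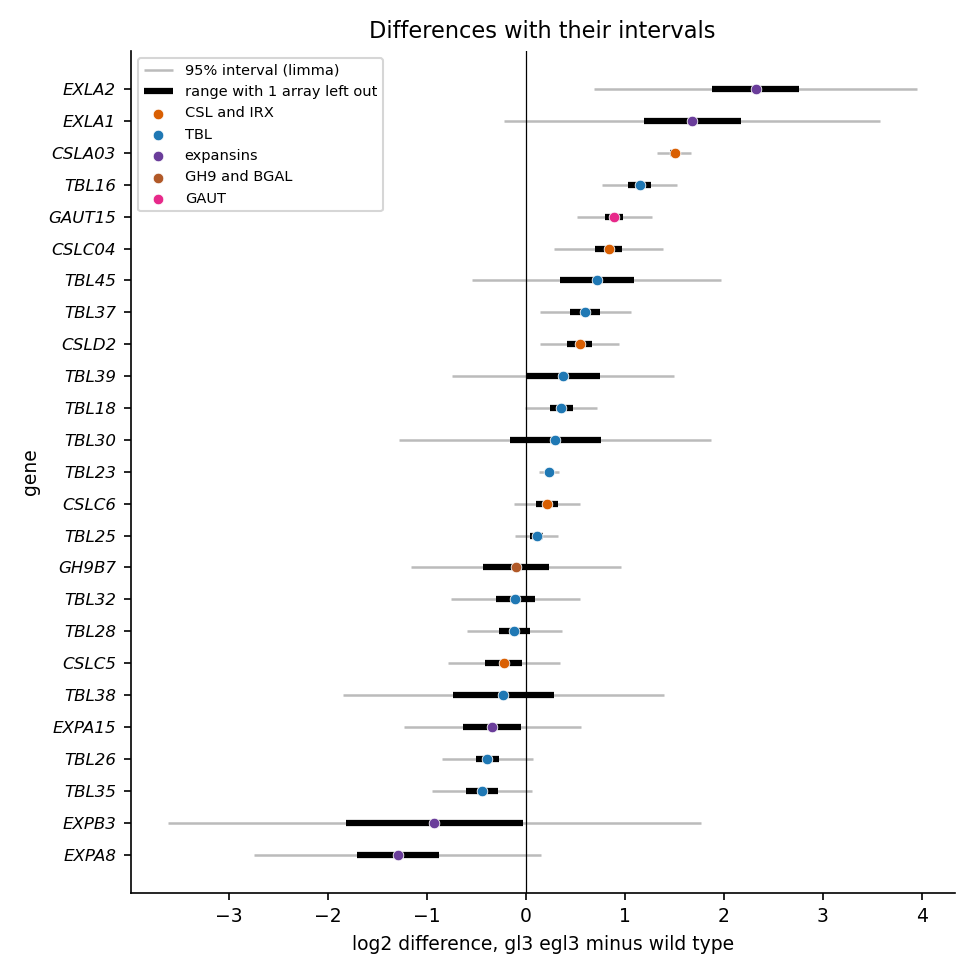
Log2 difference, gl3 egl3 minus wild type (x axis), of the 25 cell wall genes above the low end in at least 1 group (y axis); points are coloured by family, grey lines are 95% intervals from limma and black bars the range of the difference with any 1 array left out. The intervals of CSLA03, TBL16, GAUT15, CSLC04, CSLD2, TBL37, TBL23 and EXLA2 lie above 0, and the widest black bar belongs to EXPB3.

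The only gene of pectin synthesis was GAUT15 (AT3G58790), of the family that joins galacturonic acid into pectin. It was at 5.55 and 5.38 in the mutant against 4.48 and 4.66 in wild type, without overlap. The difference was 0.89 (SE 0.11, 95% interval 0.52 to 1.27, limma adjusted p 0.270), and 0.81 to 0.98 with any 1 array left out. With 16 added to the linear values it was 0.60. PME61, a pectin methylesterase gene and the only one for pectin modification, had group means of 2.51 and 2.72, within the low end.

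Among 18 expansin genes, the expansin-like genes EXLA2 and EXLA1 had the largest differences, and alpha- and beta-expansins lay mostly at the low end. EXLA2 (AT4G38400) had values of 6.15 and 6.79 in the mutant against 4.58 and 3.71 in wild type. EXLA1 (AT3G45970) had values of 10.12 and 11.10 against 8.54 and 9.32. Neither gene overlapped between groups, though the arrays of a group lay 0.64 to 0.98 apart.

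The difference was 2.32 for EXLA2 (SE 0.47, interval 0.69 to 3.96, limma adjusted p 0.412) and 1.68 for EXLA1 (SE 0.55, interval -0.22 to 3.58, limma adjusted p 0.586). Leaving out 1 array gave 1.89 to 2.76 and 1.19 to 2.18. EXLA3, the neighbour of EXLA1 in the genome, was at 2.37 to 2.71 on all arrays. Expansin-like proteins resemble expansins in sequence, and wall loosening has not been shown for them as it has for alpha-expansins.

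EXPA8 (AT2G40610) was the only one of 10 alpha-expansin genes above the low end in both groups. Its values were 4.57 and 3.74 in the mutant against 5.68 and 5.21 in wild type, lower in the mutant without overlap. The difference of -1.29 (SE 0.42, interval -2.74 to 0.16, limma adjusted p 0.585) ranged from -1.71 to -0.88 when 1 mutant array was left out. EXPA8 is named outside the rule for named genes, after its value was seen. The other alpha-expansins had means under 3 in both groups or, for EXPA15, in gl3 egl3, and the beta-expansins EXPB1, EXPB2 and EXPB5 and the expansin-like gene EXLB1 lay there too.

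The glycoside hydrolase genes gave low signal on these arrays. Of 15 GH9 endoglucanase genes, which trim glucan chains and take part in cellulose assembly, 14 had means under 3 in both groups, as did BGAL16, a beta-galactosidase gene. The exception was GH9B7, at 6.04 and 5.82 in the mutant against 6.36 and 5.69 in wild type. The mutant arrays lay between the wild type ones, and the difference was -0.10 (interval -1.16 to 0.97). The genes GH9B16, GH9B17 and GH9B18 lie in a row in the genome, as GH9B11 and GH9B12 do side by side, and all 5 were at the low end.

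**Figure D4:**
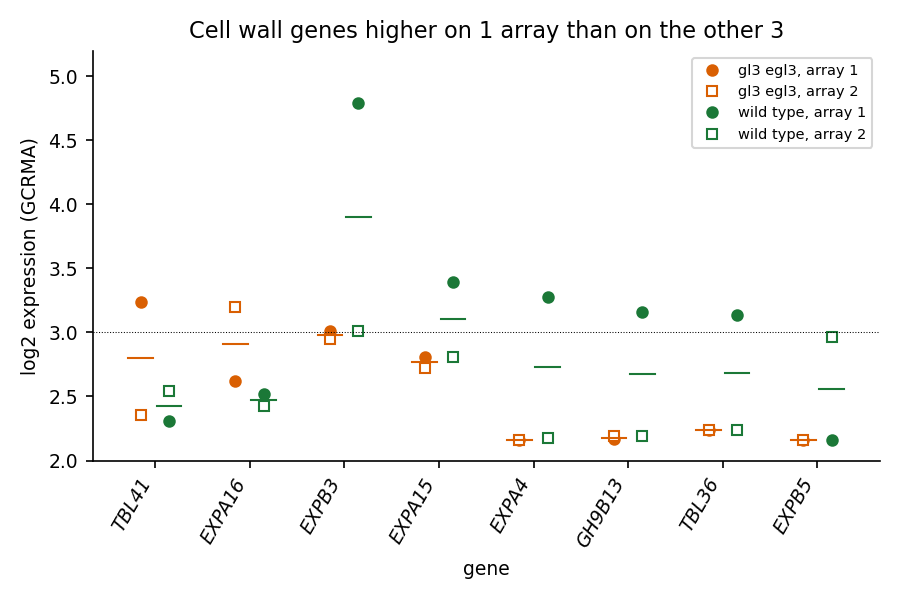
Log2 expression (y axis) on each array of the 8 cell wall genes (x axis) with a value more than 0.5 above the other 3 arrays, where those lay near or under 3 (dotted line); colours and symbols mark group and array as in the plot of genes by array, and short lines are group means. In 5 of the 8 genes the high value is that of wild type array 1.

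Of the 41 genes at the low end in both groups, 28 differed by less than 0.05. The others ranged from -0.57 to 0.44, several of them through 1 array. EXPA4 was at 2.16 on both mutant arrays, 3.28 on wild type array 1 and 2.18 on array 2. GH9B13 (3.16 against 2.17 to 2.19) and TBL36 (3.13 against 2.24) had the same pattern. EXPB3, a beta-expansin gene, lay at 4.79 on wild type array 1 and between 2.95 and 3.01 on the other 3. Counting EXPA15, 5 genes stood out in this way on wild type array 1, and 1 each on the other arrays (EXPB5, EXPA16 and TBL41). Over all probe sets the same pattern held for 0.589% on wild type array 1, 0.717% on wild type array 2, and 0.237% and 0.365% on the gl3 egl3 arrays. The differences of these genes rest on 1 sample each: for EXPB3, -0.92 became -0.03 without wild type replicate 1, and for EXPA4, -0.57 became -0.02. These 2 were also the genes of the 66 whose wild type arrays differed by more than 1, against 2.28% of all probe sets.

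Other genes of wall biology were read from lists of 129 symbols outside these families, of which only 6 had a named probe set that was no member of the 66. The wall-sensing receptor kinase gene THE1, which monitors wall integrity during growth, was at 9.80 and 10.08 in the mutant against 7.76 and 8.08 in wild type. The groups did not overlap. The difference was 2.02 (SE 0.18, limma adjusted p 0.237). THE1 was the 1 of the 6 higher at an unadjusted limma p under 0.01, against 2.03% of all probe sets. FER, a related receptor kinase gene, was at 8.99 and 9.42 against 8.55 and 8.95, a difference of 0.45 (SE 0.26) that ranged from 0.24 without gl3 egl3 replicate 2 and 0.25 without wild type replicate 1 to 0.67. COB, which guides cellulose deposition, differed by 0.17 (SE 0.20) and the sugar pyrophosphorylase gene USP by -0.34 (SE 0.26, and -0.08 without gl3 egl3 replicate 1), and in both the groups overlapped. ANX1 and ANX2, receptor kinase genes of pollen, lay at the low end. In all, 4 of the 6 had a higher and 2 a lower mean in gl3 egl3. Of all probe sets with a mean of 5 or more, 56.9% were higher. As 2 of the 6, ANX1 and ANX2, lay at the low end, nothing is read from this count.

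To find the genes with array values most like those of CSLA03, each gene's 4 values were centred on their mean and compared by Euclidean distance over the 4 samples. The nearest 5 genes outside the 66 were BZIP61, a bZIP transcription factor gene, with a distance of 0.122, AT4G32350 with 0.137, the actin gene ACT11 with 0.192, AT5G44020 with 0.218 and RALFL22, which encodes a small secreted peptide of the RALF family, with 0.221. Their differences were 1.32 to 1.72. Within the 66, the nearest were TBL16 (0.423), GAUT15 (0.646) and CSLC04 (0.746). The distance rests on 4 samples only and says nothing of shared function or control.

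**Figure D5:**
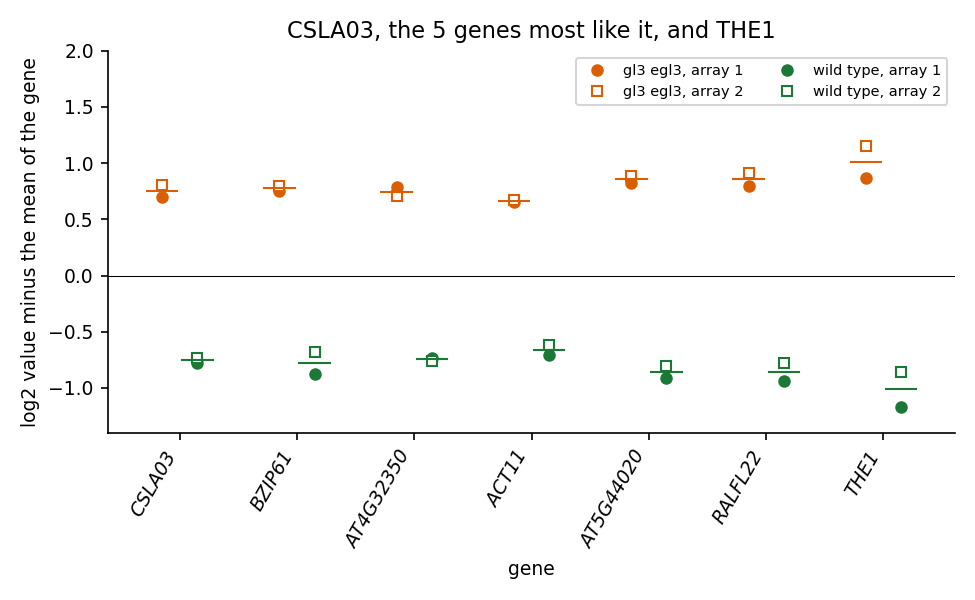
Log2 expression minus the mean of the gene (y axis) on each array for CSLA03, the 5 genes most like it and THE1 (x axis); orange marks gl3 egl3, green wild type, filled circles array 1 and open squares array 2, and short lines are group means. In each of the 7 genes both mutant values lie above 0 and both wild type values below it.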

How the data were processed

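The authors deposited log2 expression values made with GCRMA, through an R interface to limma, from ATH1 array images. GCRMA corrects the background by probe sequence, applies quantile normalization and combines probes by median polish. Its version is not given in the sources used here, nor whether further arrays were normalized together with these. It compresses dim probe sets, so differences there are understated, and no detection calls were used. The number of arrays limits the precision.

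Of 22810 probe sets, 64 controls were left out and 22746 tested. The platform annotation gave 13513 of them 1 symbol, 503 several and 8730 none. Loci and neighbouring genes came from RefSeq (assembly TAIR10.1) by gene number, for 13436 probe sets. No coordinates are given, since the values carry no build. Each of the 66 genes was read by 1 probe set.

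Differences were fitted with limma 3.58.1 in R 4.3.3 (lmFit, eBayes) on all 4 arrays without covariates, two-sided, with Benjamini-Hochberg adjustment over all probe sets. There were 2 residual degrees of freedom, and the prior added 0.623. SEs are moderated. The script was tested on simulated data. Genes named are CSLA03, members at an unadjusted p under 0.01, the 2 largest differences and the highest mean per role, the 5 largest gaps between arrays of a group, and the 2 largest differences per further list (means of 5 or more for differences), beside EGL3. Further members are described because every member is accounted for. Members and lists were chosen with earlier results of these data known.

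The alternatives were quantile normalization, median centring, 16 added on the linear scale, a filter at a mean of 5, robust variances with an intensity trend, each array left out, a block for replicate number, the methods' t-test, probe sets of several targets left out, the mean over probe sets, and other thresholds.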

Additional observations from a re-analysis of the deposited data

How the results depend on the processing

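No gene of the 66 passed an adjusted p under 0.05 with any alternative. CSLA03 differed by 1.22 to 1.55 over the alternatives run, with an adjusted p from 0.0886 (fewer probe sets tested, those with a mean of 5 or more) to 0.545 (the methods' t-test). The count of 4 genes higher at an unadjusted p under 0.01 was 1 with the methods' t-test and 8 at an unadjusted p under 0.05, and 1 to 3 with an array left out. CSLA03 was the gene left in each case where an array of gl3 egl3 or wild type replicate 2 was left out. In each of those cases the share of the 66 genes called higher was below that of all probe sets. No excess of higher genes over all probe sets was therefore left there. Without wild type replicate 1 the share of the 66 genes stayed above that of all probe sets. The count of 0 lower genes was 0 to 6 with an array left out. The 4 genes lower when wild type replicate 1 was dropped included 3 from the low end, with 3.98% of all probe sets lower, and the 6 for wild type replicate 2 included 4, with 2.97%. The median over the 66 genes was -0.0305 with each array centred on its median and 0.57 for means of 5 or more, where only 14 genes remain. Of those 14, 11 were higher with each scaling, and 11 to 14 with an array left out, a count chosen after seeing the data. The share of all probe sets of that mean was not counted for these settings, so nothing is read from these counts. At an unadjusted limma p under 0.01, 3 of the 66 genes were higher with quantile normalization and 5 with each array centred on its median. With the replicate block, 4 genes were higher and 0 lower at that level, and the limma adjusted p of CSLA03 was 0.343. The share of all probe sets was not counted for these settings or for the methods' t-test, so nothing is read from their counts. The deviations of same-numbered arrays correlated at 0.184 over probe sets with a mean of 5 or more, and the labels do not say that numbers pair samples. Over the 7 alternatives that change a difference itself, 174 of 182 values of 26 single genes kept their sign. Many of these genes were named for a large difference or a small p in these data, which makes a kept sign likely. With 1 array left out, 7 genes reached the other sign. GH9B7 ranged from -0.432 to 0.239 (0.0115 if the second mutant array is dropped), TBL38 from -0.738 to 0.287, TBL32 from -0.299 to 0.0917, COB from -0.0546 to 0.385, PSAE-1 from -0.276 to 0.0671, PYK10 from -0.655 to 0.342 and the guard cell gene FMA from -0.537 to 0.0318. The causes were not tested. With a lone array, a group is assumed to vary like the other.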
